A study of Solanum tuberosum with 8 samples.

Results

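Leaves of watered potato plants of line Stpfld252, which carries a cyanobacterial flavodoxin (Fld) in its chloroplasts, were compared with leaves of watered wild-type (WT) siblings on 4 one-colour Cy3 arrays, 2 per genotype, of the 8 arrays in the series. The 4 arrays are those whose labels give normal watering as the treatment, and they share 1 slide. The other slide holds 2 Stpfld252 and 2 WT arrays of plants kept without water for 3 days. It is used below to ask whether a genotype difference was also measured, and with what size, on arrays of other plants. Its arrays were also normalized together with the watered ones, and they entered the filter on probes and the estimate of spread behind every p-value. Stpfld252 is a single transgenic line of cultivar Solara, chosen in the study for its high Fld content. Its transgene joins the fld gene of the cyanobacterium Anabaena to a plastid transit peptide from pea and is driven by the cauliflower mosaic virus 35S promoter, so the transcript is made in most cells. WT plants carried no transgene. Each array was hybridized with RNA from a pool of young, fully expanded leaves of the fifth node, and the pools came from independent experiments. With 1 line, a difference between the genotypes cannot be told apart from the effects of the insertion site or of plant regeneration. On the slide the Stpfld252 arrays lie at one end and the WT arrays at the other, so array position and genotype cannot be told apart either.

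Flavodoxin is a small protein that carries electrons on a flavin. It can stand in for ferredoxin, the iron-sulfur protein that takes electrons from photosystem I and hands them to NADP reduction, nitrite and sulfite reduction, thioredoxins and other acceptors in the plastid. Cyanobacteria and some algae make flavodoxin when iron is short or under stress, and land plants have lost its gene. Whether any probe on the array matches the fld transgene is not known. Its own transcript, and the genotype labels by it, could therefore not be checked.

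Of the 42034 potato probes on each array, 36435 gave a signal above the negative controls on both arrays of at least 1 group. Values are log2 of the background-corrected, quantile-normalized fluorescence, and a difference of 1 on this scale is a 2-fold difference in signal. Median signal over local background was 3.64 to 4.45 on the 8 arrays, 77.8% to 80.7% of the probes were flagged as well above background, and 0 spots were saturated. The replicate SD, pooled over probes, was 0.136 in watered Stpfld252 leaves and 0.174 in watered WT leaves. Leaf mesophyll markers were strong in both genotypes. The log2 summed signal of 36 chlorophyll a/b binding protein probes was 20.13 and 20.14 on the Stpfld252 arrays, against 19.88 and 19.94 on the WT arrays, and that of 8 Rubisco small subunit probes was 19.07 and 19.09 in Stpfld252 and 18.89 and 18.95 in WT. Fewer cells of a type and less RNA per cell cannot be told apart in these pools of whole leaf.

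A probe was called when limma's adjusted p was under 0.05 and the change was over 2-fold. In watered leaves, 1452 probes were higher and 762 were lower in Stpfld252 than in WT, which is 3.99% and 2.09% of the probes tested, or 6.08% in either direction. Probes whose MICRO identifiers share a contig number were counted once, and every other identifier by itself. On that count they stand for 1338 and 697 contig groups. The median change over all probes was -0.04. Of the calls, 260 higher and 74 lower ones exceeded 4-fold. In 1242 of the higher and 712 of the lower probes the signal was well above background on all 4 arrays, while 142 of the higher probes were well above background on both Stpfld252 arrays and on neither WT array. The Stpfld252 and WT arrays did not overlap at any called probe, and they did not overlap at 72.5% of all probes either.

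Descriptions and MapMan categories, a functional ontology for plant genes, were taken from the tables of the study, which hold 5217 of the tested probes. Those tables list probes that changed in at least 1 of the study's comparisons on these same arrays, so 22.1% of them were called higher and 11.7% lower in watered leaves, well over the shares among all probes. The counts of gene lists given below are descriptions to be read beside these 2 shares, and they are not independent evidence of a direction. The bars of calls by list set the lists beside both backgrounds.

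**Figure D1:**
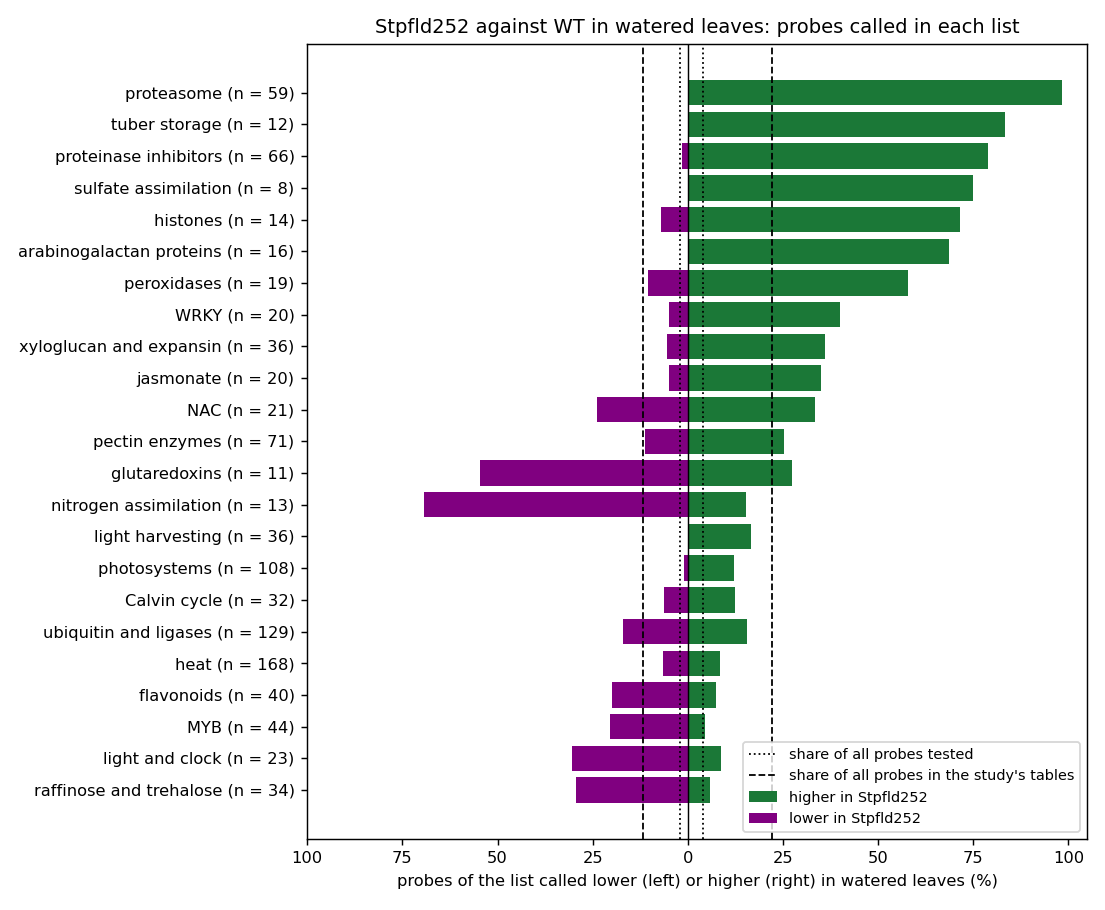
Share of the probes of each list called higher (right, green) or lower (left, purple) in Stpfld252 than in WT in watered leaves, with the number of probes tested in brackets. Dotted lines mark the shares among all probes tested (3.99% higher and 2.09% lower) and dashed lines those among all probes in the study's tables (22.1% and 11.7%); the proteasome, tuber storage, proteinase inhibitor, sulfate assimilation and histone lists extend far past the lines on the higher side, and nitrogen assimilation and glutaredoxins on the lower side.

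Among the highest changes with a description were those of 2 probes for a long-chain acyl-CoA synthetase, which activates fatty acids by joining them to coenzyme A and whose best match is LACS6, the peroxisomal enzyme of Arabidopsis. Probe bf_mxflxxxx_0003d10.t3m.scf read 11.65 and 11.54 in Stpfld252, against 4.14 and 4.23 in WT, a change of 7.41 ± 0.08 (SE; adjusted p 1.195e-07). Its second probe, STMJI37TV, read 10.78 and 10.70 in Stpfld252 and 4.89 and 5.003 in WT. At both probes the Stpfld252 arrays were far above the WT arrays, of which only 1 was well above background. On the drought slide, where other arrays were compared, the same probes were higher by 6.16 and 4.75. Among probes well above background on all 4 watered arrays, the stomatin-like probe bf_mxflxxxx_0059c05.t3m.scf read 12.50 and 12.55 in Stpfld252, against 6.51 and 6.30 in WT. The organic cation transporter-like probe MICRO.11050.C1 read 8.95 and 8.92 in Stpfld252 and 4.87 and 4.54 in WT, and the glutathione S-transferase probe MICRO.10246.C1, for an enzyme class that joins glutathione to toxic compounds, read 10.05 and 10.27 in Stpfld252 against 6.46 and 6.21 in WT. Further members of this group match Arabidopsis genes of unknown role (MICRO.16863.C1, change 4.27, and MICRO.11612.C1, change 4.16). Each of the 17 probes that were over 16-fold higher in watered Stpfld252 leaves was also called higher on the drought slide, where 6.15% of all probes were, and 13 of the 17 were over 16-fold higher there as well.

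The strongest decreases with a description included several regulators. Ethylene response factor 5, a transcription factor of the AP2 family (MICRO.773.C2), read 6.61 and 6.60 in Stpfld252, against 9.92 and 10.05 in WT. The change was -3.38 ± 0.08 (SE, with limma's adjusted p 1.521e-06). Other members of its lists went both ways. The ethylene list had 11 of 67 probes higher and 17 lower, and the AP2 family list 9 of 42 higher and 12 lower. The shares among all probes in the study's tables were 22.1% and 11.7%. A histidine-containing phosphotransfer protein, a relay of cytokinin signalling (MICRO.12517.C1), read 7.02 and 7.10 in Stpfld252 and 10.27 and 10.13 in WT. The glutaredoxin MICRO.7551.C1 read 11.65 and 11.74 in Stpfld252, against 14.70 and 14.70 in WT. Soluble starch synthase IV, an enzyme that starts new starch granules in Arabidopsis (MICRO.13669.C1), read 5.31 and 5.57 in Stpfld252 and 8.24 and 8.43 in WT. CCR4-associated factor 1, a deadenylase that shortens mRNA tails (MICRO.2383.C1), changed by -2.76, the ripening-regulated protein of MICRO.3330.C1 by -2.98, and 2 probes of unknown role by -3.21 (MICRO.491.C3) and -2.68 (MICRO.17348.C1). Of the 9 probes over 8-fold lower in watered Stpfld252 leaves, 5 were also called lower on the drought slide, where 5.15% of all probes were. At 8 of the 9 the genotype difference was called higher on the drought slide than on the watered one, against 6.14% of all probes. Picking probes by a low watered value favours such calls.

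**Figure D2:**
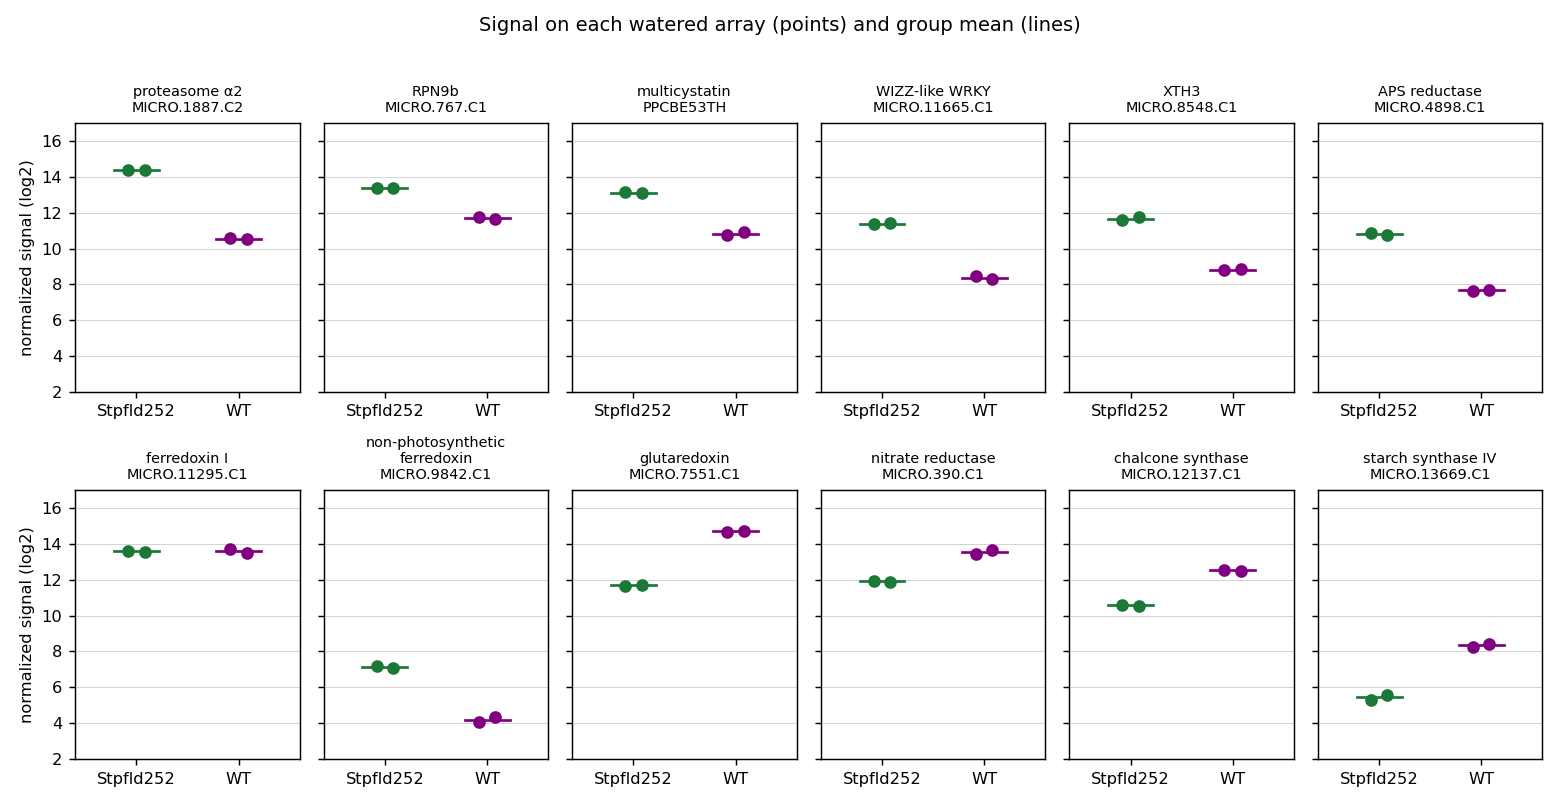
Normalized signal (log2) of 12 named probes on each of the 4 watered arrays, Stpfld252 left and WT right, with points for arrays and a line for the mean of the 2 arrays of a genotype. The replicates lie close together at every probe, ferredoxin I overlaps between the genotypes, and the other 11 probes do not.

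The 26S proteasome, which degrades proteins tagged with ubiquitin, consists of a 20S core that holds the proteolytic sites and a regulatory particle whose ATPases unfold substrates and whose non-ATPase subunits bind and deubiquitinate them. Transcripts of all of these parts rose in Stpfld252. Of 59 probes, 58 were called higher and 0 lower, and they stand for 51 contig groups, each with at least 1 higher probe. The 27 core particle probes were all called, with changes of 1.17 to 3.83 around a median of 1.65. The 13 probes of ATPase subunits were all called, with a median of 1.45, and so were the 13 of non-ATPase subunits, with a median of 1.42. The median over the list was 1.52, against -0.04 over all probes. The primers that the study designed for quantitative PCR of 2 of these transcripts are given here to identify them by sequence, each 5′ to 3′ and named by the study's gene name, together with those of ferredoxin I, which is described further on.
PSA2B forward: acagctggtgagagaaactgct
PSA2B reverse: cgcaaccaagagtgaaacacca
RPN9b forward: ctatccccctgagtgtgatt
RPN9b reverse: gacacatgaactgtcccttc
Fd1 forward: agggctggttcttgctcatctt
Fd1 reverse: tcctgcagcttcttggtcatca

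Within the core, the size of the change differed widely between probes. MICRO.1887.C2, which matches an Arabidopsis α2 subunit gene, read 14.40 and 14.37 in Stpfld252, against 10.60 and 10.51 in WT, a change of 3.83 ± 0.08 (SE; adjusted p 1.117e-06). Another probe of the same contig group, MICRO.1887.C4, for which the PSA2B primers were made, changed less, at 14.61 and 14.58 in Stpfld252 and 13.45 and 13.41 in WT. Its change of 1.17 was the smallest in the core list. The δ subunit probe MICRO.4637.C1 read 10.92 and 10.85 in Stpfld252, against 7.55 and 7.43 in WT, and the α6 probe cPRO13E1TH read 12.53 and 12.72 in Stpfld252 against 10.41 and 10.36 in WT. In the regulatory particle, the ATPase probe MICRO.965.C4 read 10.92 and 10.85 in Stpfld252 and 8.002 and 7.93 in WT, a change of 2.92 ± 0.07, and the ATPase probe bf_arrayxxx_0003a06.t7m.scf read 12.02 and 11.97 in Stpfld252, against 9.65 and 9.56 in WT. A probe for subunit 4 of the ATPase ring, SDBN004M14u.scf, changed by 2.18. The non-ATPase subunits moved within a narrow range of 1.06 to 1.68. RPN9b, the probe with primers above (MICRO.767.C1), read 13.39 and 13.37 in Stpfld252, against 11.76 and 11.64 in WT, the regulatory subunit of MICRO.1225.C2 read 13.42 and 13.35 in Stpfld252 against 11.78 and 11.83 in WT, and non-ATPase subunit 8 (MICRO.704.C4) read 12.68 and 12.55 in Stpfld252 against 11.00 and 11.04 in WT.

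The only proteasome probe not called was MICRO.2258.C3, at 8.52 and 8.76 in Stpfld252 and 8.43 and 8.29 in WT. It shares a contig number with MICRO.2258.C1, listed under proteasome ATPases although part of its description names a vacuolar proton ATPase, which was called with a change of 1.21. The 2 probes matching At3g15180, a proteasome-related Arabidopsis gene, were called higher in watered leaves at 1.66 (MICRO.7259.C1) and 1.56 (MICRO.13293.C2) and gave 0.24 and 0.61 on the drought slide, neither of them called. Under another normalization, median scaling, the changes of MICRO.1887.C4 and MICRO.2258.C1 were 0.99 and 0.98, just under 2-fold. Ubiquitin itself, its conjugating enzymes and its ligases did not follow the proteasome. Of 129 probes, 20 were called higher and 22 lower, shares of the same order as those among all probes in the study's tables, and the list median was -0.24. A RING-type ligase probe without a named role, MICRO.8795.C2, fell to 11.11 and 11.02 in Stpfld252, against 13.53 and 13.60 in WT.

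Plants store proteinase inhibitors in leaves after wounding or under jasmonate, where they block the digestive enzymes of insects, and potato also accumulates them in tubers. Of 66 inhibitor probes, 52 were called higher in watered Stpfld252 leaves and 1 lower, with a median change of 1.36. Several classes contributed. Aspartic protease or cathepsin D inhibitors were higher at 14 of 15 probes with a median of 1.33, Kunitz-type, serine and cysteine protease inhibitors at 14 of 22 with a median of 1.55, proteinase inhibitor I at 8 of 9 with a median of 1.54, proteinase inhibitor II at 5 of 6 with a median of 1.12, and multicystatin, an inhibitor of cysteine proteases, at 3 of 3 with a median of 2.12. The proteinase inhibitor I probe MICRO.5302.C1 read 16.34 and 16.36 in Stpfld252, against 14.78 and 14.76 in WT. Multicystatin (PPCBE53TH) read 13.13 and 13.08 in Stpfld252 and 10.76 and 10.90 in WT. Serine protease inhibitor 5 (MICRO.18257.C1) read 10.72 and 10.72 in Stpfld252, against 8.24 and 8.002 in WT. A cathepsin D inhibitor probe (MICRO.1751.C21) was well above background in Stpfld252 and not in WT, and was at least 5.10-fold higher. This bound and others like it compare the Stpfld252 mean with the higher of the WT signal and the lowest signal counted as well above background on each array. The single inhibitor that fell, a trypsin inhibitor-like probe (MICRO.17652.C2), read 8.26 and 8.27 in Stpfld252 and 9.96 and 10.02 in WT. Several of these probes share contig groups or may have near-identical sequences, and cross-hybridization between members of the family was not tested.

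On the drought slide the proteasome and the inhibitors parted. Of the 58 proteasome probes higher in watered leaves, 53 were again called higher, and the list median was 1.53. Of the 52 inhibitor probes, 9 were called higher and 6 lower there, and the list median was -0.02. All 3 multicystatin probes stayed high, with a median of 2.31, while 0 of the 14 aspartic protease or cathepsin D inhibitors were called higher. The difference of the genotype effects between the slides, drought minus watered, was itself called lower at 43 and higher at 2 of the 66 inhibitor probes, and lower at 2 and higher at 1 of the 59 proteasome probes. Of the 52 inhibitor probes higher in watered leaves, 37 had a lower difference. Over all probes that difference was called at 12.4%, lower at 6.26% and higher at 6.14%. It contains the watered values, so a probe called higher in watered leaves starts with an excess toward a lower difference.

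**Figure D3:**
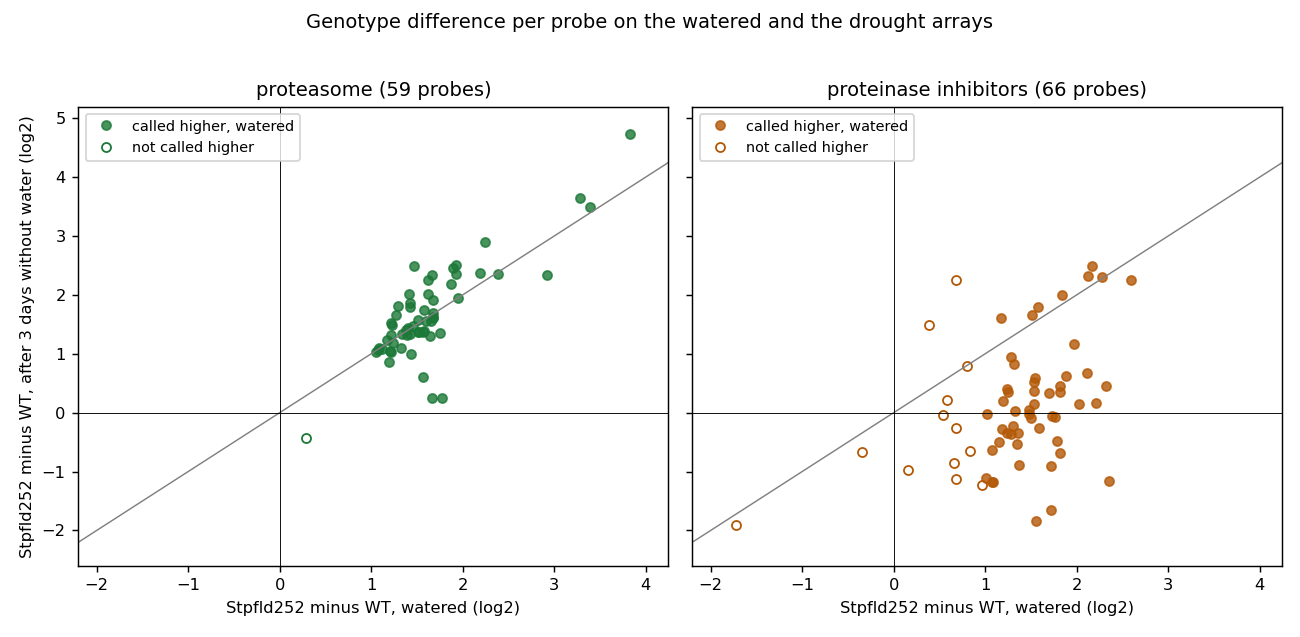
Difference of Stpfld252 and WT (log2) in watered leaves (horizontal axis) against that after 3 days without water (vertical axis), 1 point per probe for the proteasome (left) and proteinase inhibitor (right) lists. The grey line marks equal differences: the proteasome probes follow it, with medians of 1.52 and 1.53, whereas the inhibitors spread from above it to below 0 under drought, with medians of 1.36 and -0.02.

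Markers of tubers were higher too. Patatin is the main storage protein of the potato tuber, and it can be induced in leaves by sugars. Of 12 probes for patatins and for proteins induced upon tuberization, 10 were called higher, 8 of the 10 patatin probes among them. The 12 probes stand for only 6 contig groups, of which 4 had a higher probe. Their summed signal was 13.69 and 13.86 on the Stpfld252 arrays, against 12.43 and 12.34 on the WT arrays. Whether RNA of other cell types had a part in the other results was not tested. The class I patatin probe MICRO.1520.C30 read 8.25 and 8.38 in Stpfld252 and 5.79 and 5.24 in WT. Of the 10 probes, 8 were also called higher on the drought slide, and the median over the list was 1.68 in watered leaves and 2.53 there. Among genes of dividing cells, 9 of 9 probes for histones H3 and H4, the core of the nucleosome, were called higher, at a median of 1.40. The H3 probes stand for 4 contig groups and the H4 probes for 1. The H3 probe MICRO.2825.C1 read 10.75 and 10.86 in Stpfld252, against 9.49 and 9.22 in WT. All 7 H3 probes were called higher on the drought slide as well. The stress-inducible linker histone H1 (MICRO.6640.C1) went the other way, at 13.62 and 13.65 in Stpfld252 and 15.01 and 15.05 in WT. DNA replication genes were called higher at 3 of 11 probes and lower at 1.

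The jasmonate list, which covers lipoxygenases and other steps of synthesis and signalling of the wound hormone, had 7 of 20 probes higher and 1 lower. Lipoxygenase, an early enzyme of the pathway (MICRO.11738.C1), read 10.26 and 10.45 in Stpfld252, against 8.72 and 8.76 in WT. Only 1 of the 7 was called higher on the drought slide, where this lipoxygenase probe gave -0.25. WRKY factors, a family that regulates defence and senescence genes, were higher at 8 of 20 probes and lower at 1, and 0 of the 8 were called higher under drought. The probe matching WIZZ, a wound-induced WRKY of tobacco (MICRO.11665.C1), read 11.37 and 11.41 in Stpfld252 and 8.45 and 8.30 in WT, a change of 3.01 ± 0.13 (SE; adjusted p 1.138e-05). A second probe with the same best match, MICRO.9425.C1, was called lower with a change of -1.04, which was -0.88 and no longer past 2-fold with the scanner software's processed signal. Another WRKY probe, MICRO.7018.C1, read 9.27 and 9.20 in Stpfld252, against 6.75 and 6.84 in WT. Of 72 calcium signalling probes, 20 were called higher and 8 lower, with a list median of 0.26. These shares are of the same order as the 22.1% and 11.7% among all probes in the study's tables. A calcium-dependent protein kinase (MICRO.7443.C1) was among the higher ones, at 7.68 and 7.30 in Stpfld252, against 5.39 and 5.55 in WT. Of the 20 higher calcium signalling probes, 2 were called higher and 5 lower under drought. The biotic stress list as a whole had 29 of 219 probes higher and 18 lower, which is below the share of higher calls among all probes in the study's tables.

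Cell wall proteins formed another group. Xyloglucan endotransglucosylase-hydrolases (XTH) cut and rejoin the xyloglucan chains that tether cellulose, expansins loosen walls, and arabinogalactan proteins and extensins are structural glycoproteins. XTH probes were higher at 12 of 23 and lower at 0. The 3 probes for XTH3 were all higher, at a median of 2.83, and MICRO.8548.C1 among them read 11.57 and 11.77 in Stpfld252, against 8.81 and 8.84 in WT. Expansins did not share this direction, with 1 of 13 probes higher and 2 lower. Expansin 2 (MICRO.16156.C1) fell to 12.71 and 12.98 in Stpfld252, against 14.60 and 14.55 in WT. Arabinogalactan proteins were higher at 11 of 16 probes and lower at 0, with a median of 1.38. An extensin-like probe (MICRO.1262.C13) read 9.49 and 9.62 in Stpfld252 and 5.78 and 5.65 in WT. Class III peroxidases, which cross-link wall polymers and phenolics, were higher at 11 of 19 probes and lower at 2, for example MICRO.8906.C3 at 7.93 and 7.81 in Stpfld252, against 5.25 and 5.24 in WT. Of 71 probes for pectin-modifying enzymes, 18 were higher and 8 lower. These shares are near the 22.1% and 11.7% among all probes in the study's tables. On the drought slide, 5 of 12 XTH probes, 5 of 11 arabinogalactan proteins and 6 of 11 peroxidases were called higher again. These shares lie near the 40.5% among all higher probes in the study's tables. None of the XTH3 probes was called higher there, and their median was 0.38.

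Since Fld takes over tasks of ferredoxin, the ferredoxins and the enzymes that use them were looked at one by one. The leaf ferredoxin Fd1 (MICRO.11295.C1) read 13.61 and 13.56 in Stpfld252 and 13.70 and 13.51 in WT. The ranges overlapped, and the change was -0.02 ± 0.09 (SE; adjusted p 0.88). Under drought the same probe was higher in Stpfld252 by 1.15. The 2 probes for a non-photosynthetic ferredoxin, the form that serves roots and other tissues without light reactions, were both called higher. MICRO.9842.C1 read 7.19 and 7.06 in Stpfld252, against 4.04 and 4.32 in WT, where it was not well above background, and was at least 7.71-fold higher. Probe bf_mxflxxxx_0070d09.t3m.scf read 8.20 and 8.11 in Stpfld252, against 5.33 and 5.19 in WT, a change of 2.90 ± 0.12. The putative ferredoxin of bf_mxflxxxx_0058h06.t3m.scf changed by 0.33 and was not called. Leaf ferredoxin-NADP reductase, the enzyme that passes electrons on to NADP (MICRO.4050.C1), changed by 0.14, a second reductase probe (MICRO.609.C2) by -0.65, and ferredoxin-dependent glutamate synthase (MICRO.8806.C1) by -0.12, none of them called. The other 4 probes whose descriptions mention ferredoxin changed by -0.76 to 0.08, and 0 were called.

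Most genes of the light reactions were not called in watered leaves. Of 36 light-harvesting probes, 6 were called higher and 0 lower, and of 108 photosystem probes 13 were higher and 1 lower, shares below the 22.1% among all probes in the study's tables. The 6 higher light-harvesting probes stand for only 2 contig groups. The light-harvesting median was 0.37. The chlorophyll a/b binding protein probe MICRO.331.C89 was the second highest of its list, at 15.41 and 15.33 in Stpfld252, against 13.40 and 13.45 in WT. The photosystem I subunit psaK (MICRO.1823.C4) read 16.57 and 16.59 in Stpfld252 and 15.56 and 16.05 in WT, a change of 0.77 that was not called, although it passed at 1.02 without the second WT array. The photosystem II protein psbY (MICRO.5278.C1) changed by 0.27. On the drought slide the light-harvesting median was 1.48 and the photosystem median 1.12. Calvin cycle genes were higher at 4 of 32 probes and lower at 2.

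Reduction of sulfate to sulfide in the plastid runs through ATP sulfurylase and adenylyl-sulfate (APS) reductase to sulfite reductase, which takes its electrons from ferredoxin. Of 8 probes of sulfate assimilation, 6 were called higher and 0 lower, with a median of 1.85. APS reductase, the main control point, was called at 3 of 4 probes with a description. MICRO.4898.C1 read 10.84 and 10.77 in Stpfld252, against 7.65 and 7.68 in WT, a change of 3.14 ± 0.12 (SE; adjusted p 8.068e-06), and MICRO.14779.C1 read 11.99 and 12.07 in Stpfld252 and 9.13 and 9.05 in WT. The fourth, MICRO.2641.C1, changed by 0.76 and stayed under the 2-fold limit. ATP sulfurylase (MICRO.119.C2) read 14.48 and 14.46 in Stpfld252, against 13.45 and 13.35 in WT, a change of 1.07 that was 0.88 under median scaling. Of the 6 probes, 5 were also called higher under drought, where the list median was 3.25. A pair of further probes was picked out after their values were seen. The probe matching At5g48850, named SULFUR DEFICIENCY-INDUCED 1 there (bf_ivrootxx_0040e05.t3m.scf), read 10.38 and 10.18 in Stpfld252, against 5.10 and 5.37 in WT, and its change was 5.04 in watered leaves and 7.47 on the drought slide. The probe matching At5g26220, a γ-glutamyl cyclotransferase of the ChaC type that breaks down glutathione (MICRO.2778.C2), read 11.30 and 11.12 in Stpfld252 and 9.19 and 9.19 in WT. Sulfate transporters did not share this direction, with 1 of 15 probes higher and 3 lower, and MICRO.7577.C1, for a transporter of group 3, read 9.65 and 9.62 in Stpfld252, against 10.80 and 10.68 in WT.

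Nitrogen assimilation genes ran mostly the other way. Nitrate reductase makes nitrite, nitrite reductase uses ferredoxin to make ammonium, and glutamine synthetase and glutamate synthase fix the ammonium. Of 13 probes, 9 were called lower and 2 higher in watered Stpfld252 leaves. All 3 probes described as nitrate reductase were lower, and MICRO.390.C1 read 11.94 and 11.89 in Stpfld252, against 13.42 and 13.68 in WT. Of the 3 probes described as nitrite reductase, 2 were lower, with MICRO.4468.C1 at 8.28 and 8.33 in Stpfld252 and 10.10 and 10.34 in WT, while the third (MICRO.8565.C1) changed by 0.00. The study's primer table names MICRO.8565.C1 NR3, a nitrate reductase, and which of the enzymes it measures is not settled here. Glutamine synthetase differed between its probes. MICRO.8061.C1, best matched by a tobacco sequence, rose to 10.17 and 10.15 in Stpfld252, against 6.91 and 6.83 in WT, and MICRO.1095.C2 fell to 12.44 and 12.40 in Stpfld252, against 13.61 and 13.87 in WT. NADH-dependent glutamate synthase (MICRO.292.C1), the form that does not use ferredoxin, read 10.40 and 10.31 in Stpfld252, against 8.92 and 8.77 in WT. On the drought slide 5 of the 9 lower probes were called higher instead, these being the nitrate and nitrite reductase probes, and at MICRO.390.C1 the genotype difference was 6.68.

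Glutaredoxins are small thiol proteins that use glutathione, and a plant-specific class binds TGA transcription factors and responds to nitrate and other nutrients in Arabidopsis. In watered Stpfld252 leaves 6 of 11 listed probes were lower and 3 higher. MICRO.7551.C1 was described above. MICRO.15924.C1 read 7.17 and 7.38 in Stpfld252, against 9.62 and 9.41 in WT, and bf_mxlfxxxx_0015a10.t3m.scf read 6.85 and 6.76 in Stpfld252 and 9.29 and 9.24 in WT. Of the 6 lower probes, 5 were called higher on the drought slide, with MICRO.7551.C1, at 0.82, as the exception. The higher ones included bf_mxflxxxx_0032e01.t3m.scf, with a change of 2.36, and the At4g15700 match BF_TUBSXXXX_0003A03_T3M.SCF, at 11.60 and 11.64 in Stpfld252, against 9.74 and 9.64 in WT, which stayed high under drought at 4.84. The description of the third names a laccase.

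Among regulators of growth and timing, genes of light perception and the clock were lower at 7 of 23 probes and higher at 2, and 0 of the 7 were called lower under drought. ZEITLUPE, an F-box photoreceptor of the clock (SSBN001B12u.scf), read 7.70 and 7.59 in Stpfld252, against 9.51 and 9.47 in WT, and the clock coupling factor ZGT (MICRO.15041.C1) rose to 9.66 and 10.06 in Stpfld252, against 7.41 and 7.17 in WT. MYB factors were lower at 9 of 44 probes and higher at 2, and bHLH factors lower at 8 of 30 and higher at 5. NAC factors rose at 7 of 21 probes and fell at 5, and 6 of the 7 higher ones were also higher under drought, at a median of 2.81 over the 7. The NAC probe MICRO.17290.C1 read 8.90 and 8.93 in Stpfld252 and 6.69 and 6.48 in WT, whereas NAC2 (MICRO.12856.C1) read 8.39 and 8.56 in Stpfld252, against 11.03 and 11.04 in WT. Flavonoid synthesis, which makes leaf pigments, was lower at 8 of 40 probes and higher at 3. Chalcone synthase, its entry enzyme, was lower at 2 of 5 probes and not called at the other 3, with a median of -0.66. The lower probe MICRO.12137.C1 read 10.59 and 10.55 in Stpfld252 and 12.57 and 12.49 in WT. The abscisic acid list had only 4 of 40 probes higher and 3 lower, shares below those among all probes in the study's tables. Its highest probe, a protein phosphatase 2C (bf_acdaxxxx_0058e12.t3m.scf), read 8.96 and 9.12 in Stpfld252, against 5.99 and 5.65 in WT. This class dampens the signal of abscisic acid, a drought hormone. The homeodomain factor ATHB7 (bf_ivrootxx_0045h05.t3m.scf), a primer gene, read 8.68 and 8.58 in Stpfld252 against 7.14 and 7.07 in WT. The phosphatase and ATHB7 probes were both called lower in Stpfld252 under drought, with changes of -1.92 and -1.79. The study's primer genes ACO1, an ethylene-forming enzyme (MICRO.2939.C2), and GAST1, a gibberellin-responsive protein (MICRO.11045.C2), changed by -0.52 and -0.51 and were not called. Mitochondrial small heat shock protein (MICRO.3166.C1) read 13.35 and 13.25 in Stpfld252, against 10.17 and 10.06 in WT, yet the heat list had only 14 of 168 probes higher and 11 lower.

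In carbohydrate metabolism, sucrose synthase, which splits sucrose with UDP, was higher at 3 of 8 probes, and MICRO.16466.C1 read 10.10 and 9.95 in Stpfld252, against 8.31 and 8.24 in WT. All 8 sucrose synthase probes were called lower in Stpfld252 on the drought slide. Invertase, which splits sucrose with water, was lower at 4 of 10 probes and higher at 0, and a cell wall invertase (MICRO.11340.C1) read 9.28 and 9.22 in Stpfld252 and 11.08 and 11.07 in WT. Of the 10 invertase probes, 8 were called lower on the drought slide as well. Granule-bound starch synthase (MICRO.920.C2) changed by -0.66 and was not called.

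Over all calls, 529 of the 1452 higher probes (36.4%) were also called higher on the drought slide, 812 were not called there and 111 were called lower. Of the 762 lower probes, 221 (29.0%) were called lower, 480 were not called and 61 were called higher. The shares among all probes tested on that slide were 6.15% higher and 5.15% lower. The 2 slides share no array, but they share the line, so an effect that any Stpfld252 plant carries would be seen on both. Larger changes recurred more often. The share called higher on both slides was 29.4% of 847 probes with a change of 2- to 2.8-fold, 35.1% of 345 between 2.8- and 4-fold, 56.7% of 201 between 4- and 8-fold and 76.3% of 59 above 8-fold. Among the 1151 higher probes in the study's tables, from which the lists come, 466 (40.5%) were called higher again. The lists fell on both sides of this share, as the stacked bars of calls on the drought arrays show. Proteasome, sulfate assimilation, tuber storage, histone and NAC probes mostly recurred, and WRKY, jasmonate, calcium signalling and most inhibitor probes did not.

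**Figure D4:**
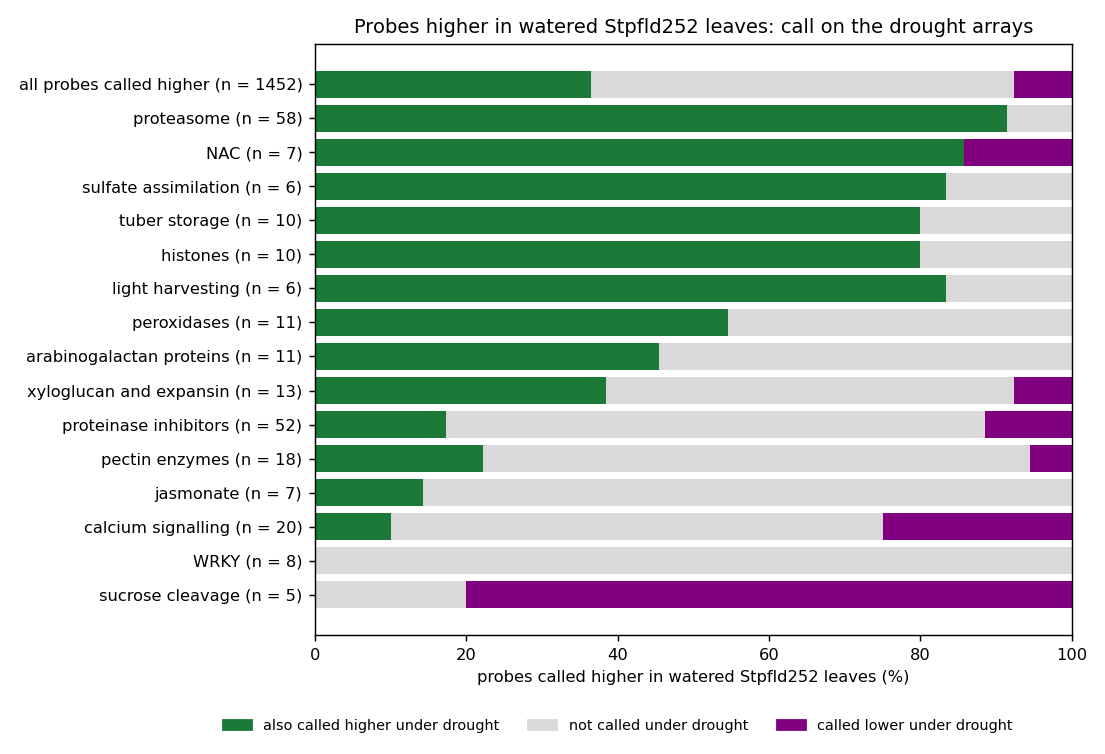
Probes called higher in watered Stpfld252 leaves, by list (number in brackets), divided by their call on the drought arrays: called higher again (green), not called (grey) or called lower (purple), in percent. All 1452 higher probes are the top bar, with 36.4% higher again; the proteasome bar has 53 of 58 probes in green, the inhibitor bar 9 of 52 and the WRKY bar 0 of 8.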

How the data were processed

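Leaf RNA of Stpfld252 and WT plants was measured on one-colour arrays, 2 per genotype and treatment. The authors deposited scanner output, in which spot and background fluorescence are median intensity values not normalized between arrays, and a table of log2 values made with limma, per the labels and methods by normexp correction, quantile normalization and filtering. The file headers give Feature Extraction 11.5.1.1.

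Here the intensities of all spots were corrected with normexp (offset 0) and quantile normalized in limma 3.58.1 (R 4.3.3). Control spots were removed. Probes had to exceed the 95th percentile of 153 negative control spots by 10% on both arrays of at least 1 group. A linear model with 4 group means was fitted to all 8 arrays, with Benjamini-Hochberg adjustment over all probes, and calls needed an adjusted p under 0.05 and over 2-fold. The fit was tested on simulated data. With 2 arrays per group, the spread is shared between groups, and p-values measure only the spread between these pools.

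Descriptions and categories come from the study's tables, of which 1 was held in part. The members and lists were chosen with earlier results of these data known. The naming rule took the 8 largest changes in each direction among described probes well above background on all 4 watered arrays, the 3 largest per list and direction, the primer genes and the ferredoxins, 246 probes in all. The text names 75 of these, all of the 8 largest included, and 12 others, among them both acyl-CoA synthetase probes. The 75 and the 12 were picked after their values were seen, and the glutaredoxin and sulfate transport lists were added then. Columns of the authors' own comparisons were not used. Alternatives were other offsets, scalings, filters and priors, the deposited log2 table, the replicate block and leaving out arrays. Probe sequences were not used here.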

Additional observations from a re-analysis of the deposited data

Results flagged for a closer look

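The genotype difference on the drought arrays was set against that on the watered arrays with a term for the difference of the 2 in the same limma fit, and the named probes below passed an adjusted p of 0.05 and 2-fold in it. Values are drought minus watered, on the log2 scale. Because the watered values enter both the call and this difference, a probe picked for a high watered change tends toward a negative value and a probe picked for a low one toward a positive value. Over all probes the difference was called at 12.4%. Slide and treatment cannot be told apart.

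The largest differences were at nitrate reductase (MICRO.390.C1, 8.32), which read 11.41 and 11.47 in Stpfld252 and 4.68 and 4.84 in WT under drought, and at nitrite reductase (MICRO.4468.C1, 5.61). MICRO.8565.C1, described as nitrite reductase but named nitrate reductase NR3 in the primer table, gave 1.24 and the glutamine synthetase probe MICRO.1095.C2 gave 1.12, while NADH-dependent glutamate synthase (MICRO.292.C1) gave -1.17. Glutaredoxins rose relative to the watered difference at bf_mxlfxxxx_0015a10.t3m.scf (4.30), MICRO.15924.C1 (4.05), MICRO.7551.C1 (3.82) and BF_TUBSXXXX_0003A03_T3M.SCF (2.91), and fell at bf_mxflxxxx_0032e01.t3m.scf (-2.34).

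In sulfur metabolism the values were 2.59 at APS reductase MICRO.2641.C1, 1.41 at ATP sulfurylase MICRO.119.C2, 1.05 at the sulfate transporter MICRO.7577.C1 and 2.43 at the At5g48850 match. Among plastid and electron transfer genes they were 1.17 at ferredoxin I (MICRO.11295.C1), -1.91 and -1.44 at the non-photosynthetic ferredoxins MICRO.9842.C1 and bf_mxflxxxx_0070d09.t3m.scf, and 1.01 at psbY.

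Probes high in watered leaves whose difference was smaller or reversed under drought were the protein phosphatase 2C (-5.14), sucrose synthase MICRO.16466.C1 (-4.15), ZGT (-3.75), the cathepsin D inhibitor MICRO.1751.C21 (-3.50), the WIZZ match MICRO.11665.C1 (-3.38), the extensin-like probe (-3.34), ATHB7 (-3.31), XTH3 MICRO.8548.C1 (-2.33), the WRKY probe MICRO.7018.C1 (-2.24), the small heat shock protein MICRO.3166.C1 (-1.96), lipoxygenase MICRO.11738.C1 (-1.87), the calcium-dependent protein kinase (-1.74), the organic cation transporter-like probe (-1.64), the proteasome-related MICRO.7259.C1 (-1.42), the LACS6 matches (-1.25 and -1.05) and the peroxidase MICRO.8906.C3 (-1.08).

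Positive values were found at ethylene response factor 5 (3.23), MICRO.17348.C1 (3.08), starch synthase IV (2.58), granule-bound starch synthase (2.39), expansin 2 (2.32), the phosphotransfer protein MICRO.12517.C1 (2.15), the stomatin-like probe (1.89), chalcone synthase (1.87), MICRO.3330.C1 (1.80), CCR4-associated factor 1 (1.61), the NAC probe MICRO.17290.C1 (1.54), ZEITLUPE (1.48), histone H3 MICRO.2825.C1 (1.07), MICRO.491.C3 (1.06) and ACO1 (1.04).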

How the results depend on the processing

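Among the 87 named probes, no call was reversed under any alternative. The sign of a change that was not called was not part of this check. At ferredoxin I, which was not called, the WT arrays read 13.70 and 13.51, above and below both Stpfld252 arrays. The sign of its change therefore depends on which WT array is used. Median scaling ended 3 calls and the processed signal 1, and without the second WT array psaK passed. The counts of calls depended on how dim signals were treated. With a normexp offset of 50 there were 861 higher, 452 lower and 460 shared with the drought slide, against 1452, 762 and 750. With the processed signal, each array centred on its 75th percentile, there were 2454 higher and 1243 shared. Under the other alternatives the counts stayed within 1.5 times. The share of higher probes among the calls was 60.7% to 71%. The proteasome median was 1.36 under median scaling and 1.55 under cyclic loess, against 1.52. The inhibitor median, 1.36, was 1.29 with an offset of 16 and with the deposited table, 1.16 with an offset of 50, 1.56 with the processed signal, 1.31 under median scaling, 1.42 under cyclic loess and 1.49 with a filter on all 4 watered arrays.

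Leaving out each watered array in turn gave 1465 to 1579 higher and 773 to 876 lower probes, 733 to 785 shared, a proteasome median of 1.51 to 1.55 and an inhibitor median of 1.38 to 1.43. The lone array of a genotype is then assumed to vary like the other groups. Replicate numbers were not treated as pairs in the main fit. The deviations of like-numbered arrays correlated at -0.0219 on the watered and -0.0884 on the drought slide. With 2 arrays per group this cannot show whether like-numbered pools came from the same experiment. The replicate block gave 1458 higher, 764 lower and 752 shared. Signal over background limits the dimmest probes. At 142 of the higher calls the signal was well above background on both Stpfld252 arrays and on neither WT array. At 16 calls it was well above background on no watered array.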

Other observations

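Probes were grouped by the first letters of their identifiers. Among 242 tested probes whose names begin with TBSK, 41 (16.9%) were called higher in watered Stpfld252 leaves and 0 lower, against 3.99% and 2.09% of all probes. This overlaps the inhibitor result, since 15 of the 242 are in the proteinase inhibitor list and 11 of these were called higher. Of the other 227, 30 (13.2%) were called higher. Among the other 20 prefixes with many probes the share called higher was 1.98% to 5.95%. What the TBSK prefix stands for is not given in the sources used here. Of the 17 probes over 16-fold higher, 5 begin with bf_mxflxxxx, of which 1010 were tested.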
